A study of Mus musculus with 10 samples.

Results

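The Cyp2c genes encode cytochrome P450 enzymes of the endoplasmic reticulum, and 7 of them, *Cyp2c29*, *Cyp2c38*, *Cyp2c40*, *Cyp2c55*, *Cyp2c65*, *Cyp2c66* and *Cyp2c68*, are described here in the proximal small intestine of Zip14 KO and WT mice. They are 7 of the 16 Cyp2c genes among the 35275 gene IDs counted, and all 7 were found by symbol. They were picked by name with earlier values of the KO against WT comparison known, so that their differences between the groups are given as a description and without a test. Each mouse, 5 KO and 5 WT, gave 1 RNA-seq library. Zip14 is the protein of *Slc39a14*, a transporter that brings zinc into cells. By the labels all 10 mice were 8 to 10 weeks old and were sampled from proximal intestine. The methods of the study describe KO mice that lack Zip14 throughout the body, bred from heterozygous parents, with WT controls of their own strain, while the series is titled for a deletion in enterocytes and its labels only give KO. By its methods the study used young adult mice of both sexes, aged 8 to 16 weeks. The sex of each mouse is not given in the sources used here.

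P450 enzymes of the Cyp2c family take electrons from P450 reductase (*Por*) and insert oxygen into drugs, steroids and fatty acids. Several of them turn arachidonic acid into epoxides or hydroxylated acids, and soluble epoxide hydrolase (*Ephx2*) then opens the epoxides into diols. In the liver, where most of the family is known from, the genes are induced by drugs through the nuclear receptors CAR (*Nr1i3*) and PXR (*Nr1i2*), and in the gut they are expressed in epithelial cells.

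All 7 genes lie in 1 cluster of 16 Cyp2c genes and pseudogenes on chromosome 19, from 38976647 to 40187333 in GRCm38, which spans 1.211 Mb. Along the plus strand come *Cyp2c55* (39007019 to 39042693), *Cyp2c65* (39061015 to 39093944), *Cyp2c66* (39113898 to 39187072) and *Cyp2c29* (39269405 to 39330713). On the minus strand follow *Cyp2c38* (39389556 to 39463075), *Cyp2c68* (39688834 to 39741054) and *Cyp2c40* (39767071 to 39812814). Of the windows before their transcription starts, 5 of the 7 carry the heptamer CAAAGTC, which is part of the motif bound by the nuclear receptors HNF4A and HNF4G. The stretch of 60 bases around it is shown for those 5 genes because these 5 windows have it in common, 5′ to 3′ on the strand of the gene, from RefSeq on GRCm38.p6, with the heptamer in capitals.
*Cyp2c29*, chr19:39286950-39287009, plus strand: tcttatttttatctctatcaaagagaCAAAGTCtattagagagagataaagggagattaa
*Cyp2c65*, chr19:39060864-39060923, plus strand: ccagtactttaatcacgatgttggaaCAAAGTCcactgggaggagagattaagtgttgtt
*Cyp2c66*, chr19:39113768-39113827, plus strand: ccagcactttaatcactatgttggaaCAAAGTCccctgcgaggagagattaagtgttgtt
*Cyp2c68*, chr19:39741145-39741204, minus strand: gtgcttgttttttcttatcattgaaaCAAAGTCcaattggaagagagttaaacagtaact
*Cyp2c40*, chr19:39812826-39812885, minus strand: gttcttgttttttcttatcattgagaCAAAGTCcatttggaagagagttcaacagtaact

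The heptamer begins 109 bases before the RefSeq start in *Cyp2c29*, 116 in *Cyp2c65*, 104 in *Cyp2c66*, 77 in *Cyp2c68* and 45 in *Cyp2c40*, always on the strand of the gene. The RefSeq start of *Cyp2c29* lies downstream of the start of its longest GENCODE span given above. Of 32851 RefSeq promoter windows of the same length, 3.84% hold it on either strand. The same windows were searched on both strands for 4 more motifs, and none of the matches in the 7 genes overlapped a match of another motif. AGGTCA, the hexamer of many nuclear receptor sites, was found only before *Cyp2c29*, where 14.0% of all windows hold it. The GATA motif AGATAA was found before *Cyp2c29* and *Cyp2c55* (9.99% of all windows), GTTAAT, part of the HNF1 motif, before *Cyp2c40* and *Cyp2c68* (6.43%), and TATAAA before *Cyp2c29*, *Cyp2c38*, *Cyp2c55*, *Cyp2c65* and *Cyp2c66* (12.4%). The 5 genes with the heptamer include pairs of like promoters, since *Cyp2c65* and *Cyp2c66* are identical at 71.8% of 238 aligned bases and *Cyp2c40* and *Cyp2c68* at 65.1% of 218, so that they are not independent of each other. *Cyp2c29* and *Cyp2c38* are identical at 55.4%, and every other pair of the 7 windows at 31.7% to 41.3% at the best offset. These motifs were chosen after the sequences had been read, and a match is no evidence of binding.

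Total counts were between 16729787 and 20819678 in the WT libraries and between 17118742 and 19414828 in the KO libraries. *Slc39a14* fell in KO mice, from 260.4 ± 62.5 to 102 ± 32.9 CPM (SD, n = 5 each), or by 1.35 ± 0.22 on the log2 scale (standard error, SE; adjusted p = 0.00184, edgeR's quasi-likelihood test), with 160.1 CPM in KO replicate 1 and at most 93.8 CPM in the other KO libraries. CPM, the unit of all levels, is the count scaled to library size (per 1e6 counts) with TMM. The libraries differed in markers of the region of the gut. *Lct*, the lactase of the upper small intestine, had between 3363 and 3783 CPM in WT mice and between 0.315 and 702 CPM in KO mice, and *Fabp6*, which binds bile acids in ileal cells, had at most 1.74 CPM in WT mice and between 2307 and 9058 CPM in KO mice. The KO libraries thus go against the label of proximal intestine in these markers, and region and genotype cannot be told apart in any comparison given here. In a whole tissue section, fewer epithelial cells and less RNA of a gene per cell cannot be told apart either. Over 10 epithelial markers the mean log2 CPM was 10.3 ± 0.13 in WT and 10.6 ± 0.18 in KO mice (SD, n = 5 each), a mean over markers that went either way. Of these, *Vil1* (3086 and 2200 CPM on average in WT and KO mice), *Cdh17* (1560 and 1178) and *Krt20* (2226 and 1742) had 4 of 5 KO libraries below all WT libraries and did not pass the test (adjusted p = 0.105, 0.0942 and 0.194 by edgeR).

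*Cyp2c65* and *Cyp2c66*, neighbours that are known as P450s of the gut, had the highest mean CPM of the Cyp2c genes in WT mice. *Cyp2c65* was the highest in every WT library. *Cyp2c66* was below *Cyp2c55* in WT replicate 2 and below *Cyp2c68* in WT replicate 4. *Cyp2c65* had 284.2, 335.2, 376.1, 164.5 and 204.3 CPM in WT replicates 1 to 5 and 76.2, 40.6, 9.66, 27.5 and 13.0 CPM in KO replicates 1 to 5. No KO library reached the lowest WT library, and the log2 fold change was -3.03 ± 0.52 (SE; 95% interval -4.18 to -1.88). *Cyp2c66* had 112.4, 180.7, 191.7, 54.1 and 97.8 CPM in the WT libraries and 2.93, 2.20, 0.0540, 0.429 and 0 CPM in the KO libraries. Its groups were also apart, and its log2 fold change, -6.84 ± 0.81 (SE; 95% interval -8.61 to -5.07), was further from 0 than those of *Cyp2c65*, *Cyp2c68* and *Cyp2c55*. Over all WT libraries 11015 reads were counted on *Cyp2c66* and over all KO libraries 104, with 52 and 42 of these in KO replicates 1 and 2.

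*Cyp2c29*, which makes epoxides of arachidonic acid and is a main Cyp2c enzyme of mouse liver, was the most variable of the 7 genes among WT mice. It had 23, 407, 925, 96 and 40 counts in WT replicates 1 to 5, which are 1.19, 25.96, 54.0, 5.28 and 2.24 CPM, a 45.2-fold range. The SD of its log2 CPM over WT mice was above that of 99.8% of all tested genes. In KO mice it had 1, 0, 0, 3 and 0 counts, below every WT library, and the log2 fold change was -8.51 ± 1.44 (SE; 95% interval -11.67 to -5.35). As a difference of mean log2 CPM with a prior count of 2 it was -5.74, nearer to 0 than the -7.63 of *Cyp2c66* on that measure. With 1491 counts in WT against 4 in KO mice, the ratio of summed CPM was 403.5 with a counting interval of 157.2 to 1483 (95%).

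*Cyp2c38*, another arachidonic acid epoxygenase, was lowly counted in WT mice and not counted in KO mice. WT replicates 1 to 5 had 22, 40, 66, 10 and 14 counts (between 0.550 and 3.85 CPM), and each KO library had 0 counts. With the KO group set at a floor of 3 counts, its level was 54.8-fold lower in KO mice. The 95% counting interval of the ratio begins lower, at 44.1. *Cyp2c40*, an enzyme that hydroxylates arachidonic acid, had 8, 6, 6, 8 and 6 counts in WT and 5, 2, 4, 5 and 1 counts in KO mice. That is a ratio of summed CPM of 2.17, with a counting interval of 1.18 to 4.13. Neither gene passed the filter on low counts.

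*Cyp2c68* and *Cyp2c55* overlapped between the groups, in each case through 1 or 2 KO libraries. *Cyp2c68* had 52.3, 83.8, 83.4, 65.0 and 41.8 CPM in WT replicates 1 to 5 and 52.3, 8.39, 4.64, 9.72 and 15.5 CPM in KO replicates 1 to 5. KO replicate 1 lay inside the WT range and the other 4 KO libraries below it. The log2 fold change was -1.85 ± 0.56 (SE; 95% interval -3.08 to -0.62), and -2.77 without KO replicate 1, the library that also had the highest *Slc39a14* and *Lct* of the KO group.

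*Cyp2c55*, known for its expression in the large intestine, had 49.1, 197.7, 171.3, 38.7 and 29.3 CPM in WT mice and 34.4, 270.2, 10.3, 14.7 and 5.25 CPM in KO mice. KO replicate 2 was above every WT library, KO replicate 1 was inside the WT range, and the other 3 KO libraries were below it. The log2 fold change was -0.54 ± 0.998 (SE; 95% interval -2.73 to 1.66) and became -2.60 without KO replicate 2. *Car1*, a carbonic anhydrase of the colon, had 1172 CPM in KO replicate 2, at most 11.3 CPM in the other KO libraries and 0 in all WT libraries, and the colon markers *Hoxb13* and *Hoxd13* were at or near 0 in each group. The part of colon markers in the level of *Cyp2c55* was not tested.

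**Figure D1:**
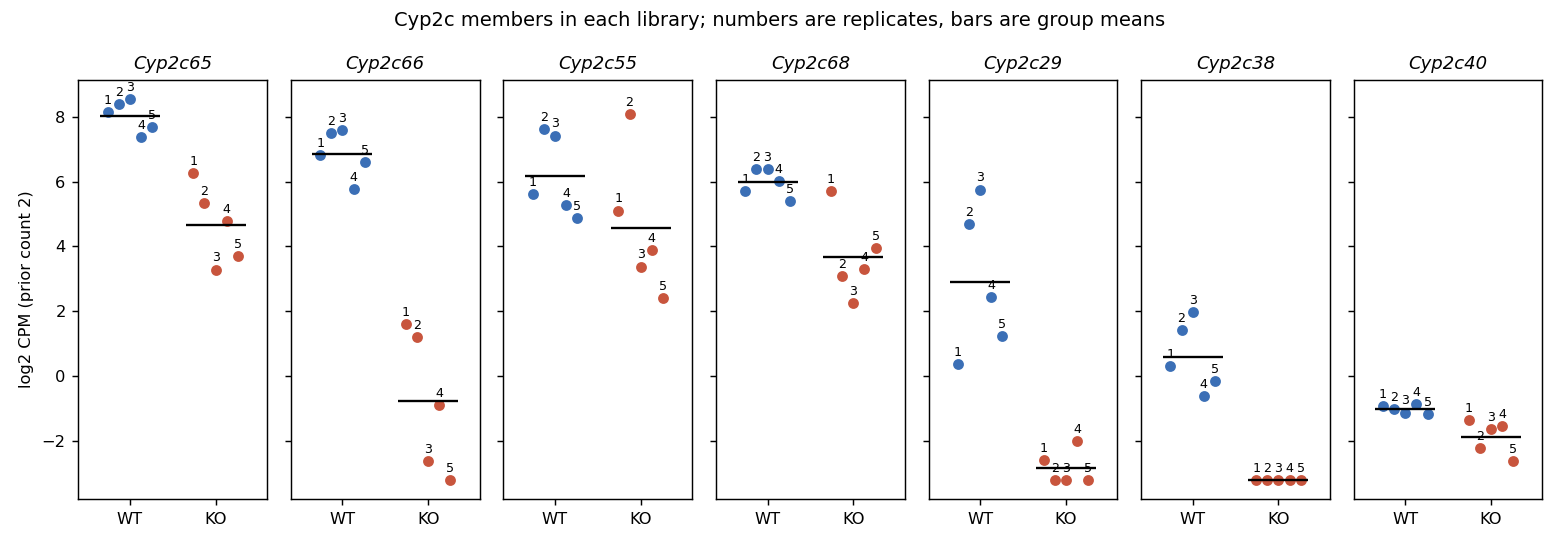
Each panel plots log2 CPM (prior count 2) of 1 gene, with a point per library numbered by replicate, WT in blue and KO in red, and a bar at the group mean. All KO points lie below all WT points for Cyp2c65, Cyp2c66, Cyp2c29, Cyp2c38 and Cyp2c40, while KO replicate 2 of Cyp2c55 (270.2 CPM) and KO replicate 1 of Cyp2c68 (52.3 CPM) lie among or above the WT points.

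Together, the mean CPM was lower in KO mice for all 7 genes, and the KO libraries lay below all WT libraries in 5 of them. Of the 5 members that passed the filter on low counts 3 showed that pattern, as did 10.8% of all tested genes. Since this comparison was known when the genes were picked, neither count is a result about them. With *Cyp2c38* set at the floor in KO mice, the median log2 fold change of the 7 genes was -3.03, and that of all 15610 tested genes was 0.03. The genes were also ordered alike among WT mice, with replicates 2 and 3 as the highest 2 libraries in 6 of 7 genes (14.6% of tested genes), *Cyp2c40* being the other one. KO replicates 1 and 2 were the highest of their group in *Cyp2c55*, *Cyp2c65* and *Cyp2c66* (12.5% of tested genes).

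Levels were compared between genes per kilobase of exon. In WT mice the order was *Cyp2c65* (141.5 ± 45.7 CPM per kb), *Cyp2c66* (65.4 ± 29.8), *Cyp2c55* (48.7 ± 40.4), *Cyp2c68* (37.9 ± 10.8), *Cyp2c29* (5.79 ± 7.39), *Cyp2c38* (0.619 ± 0.486) and *Cyp2c40* (0.189 ± 0.0213; SD, n = 5 each). *Cyp2c65* was above *Cyp2c66*, and *Cyp2c68* above *Cyp2c29*, in 5 of 5 WT mice. The neighbours *Cyp2c66* and *Cyp2c55*, *Cyp2c29* and *Cyp2c38*, and *Cyp2c38* and *Cyp2c40* kept their order in 4 of 5 mice, and *Cyp2c55* was above *Cyp2c68* in only 2 of 5. The last pair and *Cyp2c66* with *Cyp2c55*, whose mean log2 difference was 0.73 with an SD of 0.77, did not differ beyond their spread. In KO mice the highest means were those of *Cyp2c55* (33.6 ± 57.2 CPM per kb), *Cyp2c65* (17.3 ± 13.9), *Cyp2c68* (10.5 ± 11.3) and *Cyp2c66* (0.577 ± 0.695), and *Cyp2c55* was above *Cyp2c66* in all 5 mice. The first place of *Cyp2c55* rests on KO replicate 2. Without that library its mean was 8.10 ± 6.38 CPM per kb and that of *Cyp2c65* 16.4 ± 15.9 (SD, n = 4), and with it *Cyp2c65* was still the higher of the pair in 3 of 5 KO mice.

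The summed level of all 16 Cyp2c genes was 597.2 ± 258.6 CPM in WT and 123.2 ± 126.6 CPM in KO mice (SD, n = 5 each), with 338.3 CPM in the lowest WT and 324.5 CPM in the highest KO library. The 7 genes made up at least 91.0% of that sum in every library. Its make-up differed as well. *Cyp2c66* gave 21.1 ± 3.25% of it in WT and 0.666 ± 0.662% in KO mice, and *Cyp2c55* gave 14.2 ± 6.78% and 36.4 ± 27.7%, with 83.3% in KO replicate 2.

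**Figure D2:**
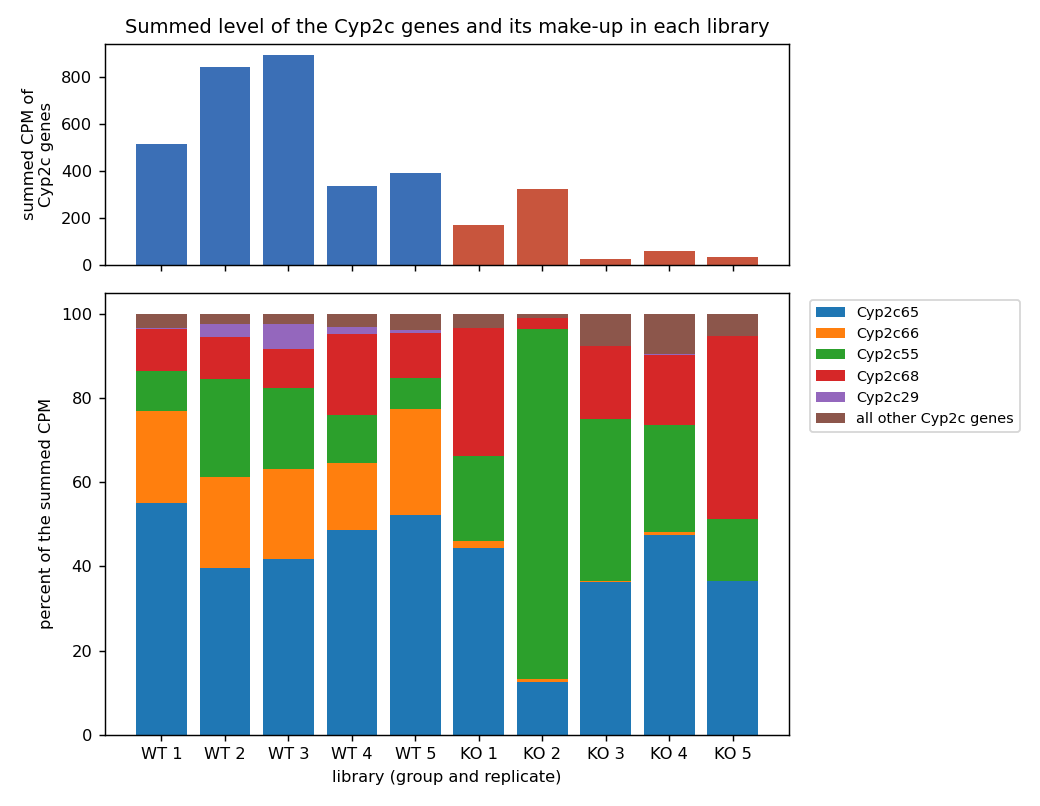
Upper bars give the summed CPM of the 16 Cyp2c genes in each library, and lower bars the percent of that sum from Cyp2c65, Cyp2c66, Cyp2c55, Cyp2c68, Cyp2c29 and all other Cyp2c genes. The share of Cyp2c66 is between 16.0% and 25.04% in WT and at most 1.71% in KO mice, and Cyp2c55 makes up most of the bar of KO replicate 2.

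The genes of the cluster are close paralogs, and how the authors counted reads that fit more than 1 gene is not given in the sources used here. Windows of 50, 100 and 150 bases were therefore cut from the GENCODE M21 transcripts of each gene and looked up in the other Cyp2c genes. *Cyp2c40* shared 60.3% of its windows of 50 bases, most of them with *Cyp2c69*, *Cyp2c67* and *Cyp2c68*, and still 20.3% of its windows of 150 bases. For *Cyp2c68* the shares were 43.3% and 8.83%, and a run of 233 bases is the same in *Cyp2c40*. *Cyp2c65* and *Cyp2c66* shared 20.2% and 19.5% of their windows of 50 bases, all of them with each other, and a run of 230 bases. *Cyp2c38* (7.45%), *Cyp2c29* (4.15%) and *Cyp2c55* (0.514%) were largely unique at 50 bases and had no shared window of 150 bases. The few counts of *Cyp2c40* are thus uncertain, and part of the 3130 KO counts of *Cyp2c65* and the 104 of *Cyp2c66* may come from the other gene of the pair. *Cyp2c29* also overlaps the pseudogene *Cyp2c53-ps* on its own strand, which had 6 counts in WT and 0 in KO mice, and *Cyp2c55* overlaps *Gm23800* on the other strand.

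**Figure D3:**
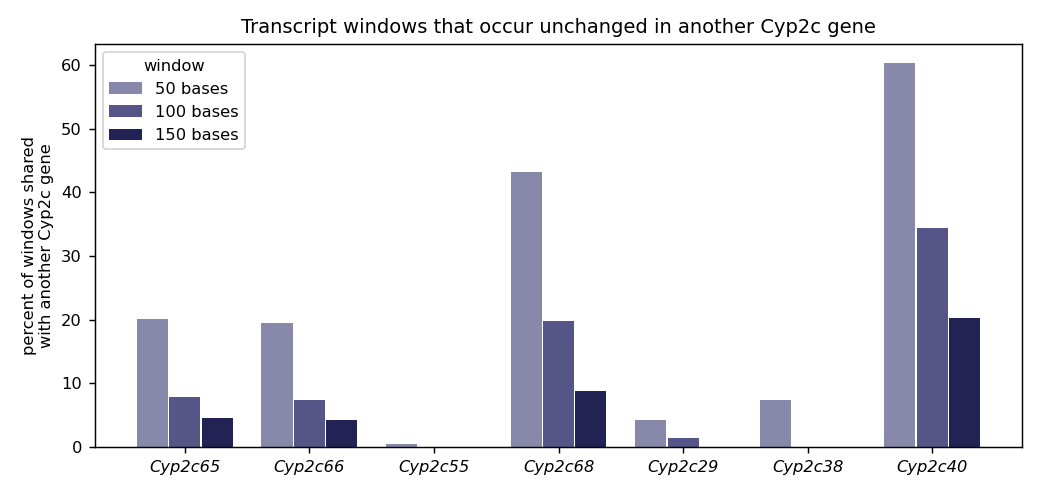
Bars give, for each gene, the percent of transcript windows of 50, 100 and 150 bases that occur unchanged in another Cyp2c gene. Cyp2c40 and Cyp2c68 share the most (60.3% and 43.3% at 50 bases), and Cyp2c55 the least (0.514%).

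Of the other Cyp2c genes, 9 had a gene ID and only *Cyp2c67* and *Cyp2c23* could be tested. Both were lower in KO mice by edgeR's quasi-likelihood test, where 13.9% of all 15610 tested genes were lower and 16.0% higher. *Cyp2c67*, whose transcript shares windows with *Cyp2c68* and *Cyp2c40*, had between 2.36 and 5.66 CPM in WT and between 0.262 and 1.91 CPM in KO mice (log2 fold change -2.42 ± 0.47, SE; adjusted p = 0.00420). *Cyp2c23*, an epoxygenase gene that lies apart on chromosome 19 (44005022 to 44029208), had between 6.98 and 11.7 CPM in WT and between 1.24 and 4.68 CPM in KO mice (log2 fold change -1.92 ± 0.34, SE; adjusted p = 0.00266). *Cyp2c70*, which makes muricholic acids in mouse liver, had 50 counts in WT and 2 in KO mice (exact permutation test, p = 0.00794, the smallest that 5 against 5 allow, and 0.0873 adjusted over 22 genes with few counts). *Cyp2c37*, *Cyp2c39* and *Cyp2c69* had at most 4 counts in each group, and *Cyp2c50* and *Cyp2c54* had none.

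**Figure D4:**
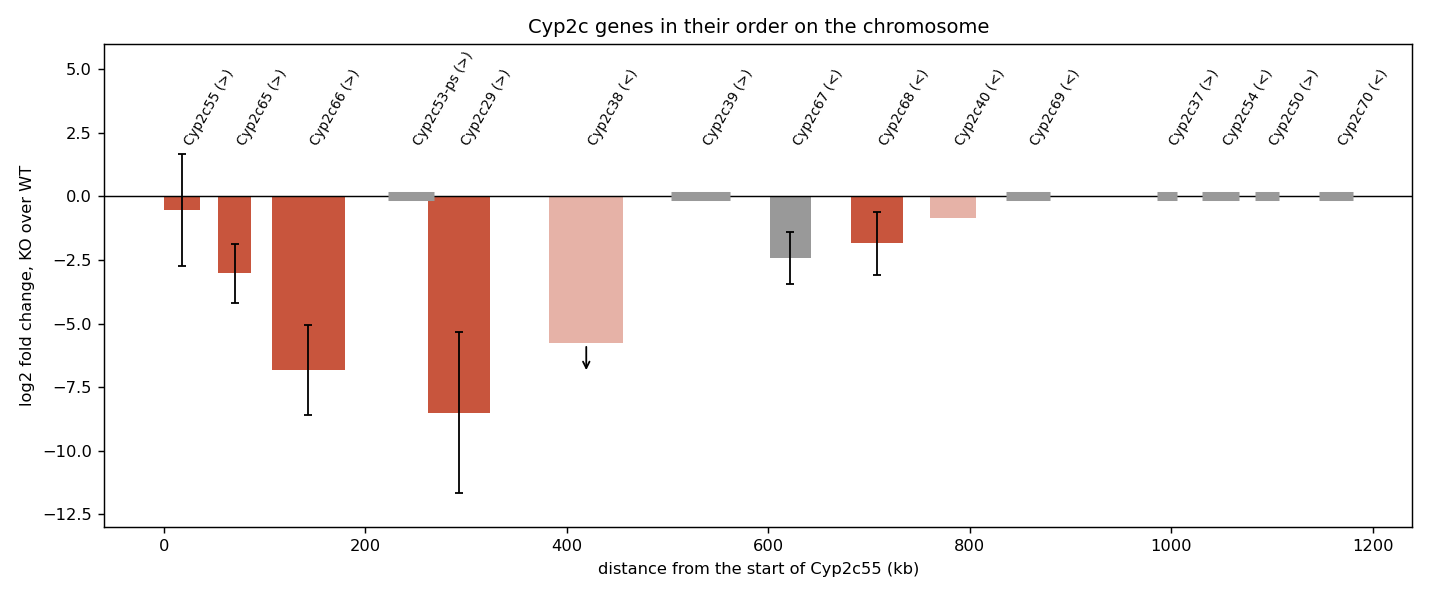
The Cyp2c genes of the contiguous cluster are drawn to scale from the start of Cyp2c55 (x axis, kb), with their strand, and the log2 fold change of KO over WT (y axis) with its 95% interval. Red bars are the 5 members that passed the filter on low counts. Pale bars are Cyp2c38 with KO mice set at the floor (arrow) and Cyp2c40 as a difference of mean log2 CPM. The grey bar is Cyp2c67, and grey marks on the line are genes with too few counts. The fitted values run from -0.54 in Cyp2c55 to -8.51 in Cyp2c29.

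Genes around the cluster moved in either direction. Within 500 kb of its ends 10 genes were tested, with *Hells* the nearest on one side and *Pdlim1* on the other. *Plce1* (log2 fold change 0.71) and *Pdlim1* (0.53) were higher, and *Aldh18a1* (-1.30), *Tbc1d12* (-0.64) and *Hells* (-0.43) lower, where 16.0% of all tested genes were higher and 13.9% lower. With the span drawn out to *Cyp2c23*, 11 flanking genes were tested, of which *Scd2* (3.40), *Scd1* (2.58) and *Plce1* were higher and *Chuk* (-0.72), *Tbc1d12*, *Erlin1* (-0.52) and *Hells* lower. The calls of *Hells*, *Scd1* and *Tbc1d12* were lost in 6, 7 and 3 of 10 fits without 1 library, among them those without WT replicates 1, 2 and 5 for each gene (adjusted p by edgeR up to 0.0824, 0.114 and 0.0644). *Scd1* was at 1.59 without KO replicate 4. The median log2 fold change of the 10 genes nearest to the members was -0.36. Values in parentheses are log2 fold changes of genes called by edgeR's quasi-likelihood test.

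The electron donors of P450 enzymes were mostly lower in KO mice, with 5 of 6 lower and none higher by edgeR's quasi-likelihood test and a median log2 fold change of -1.13, where 13.9% of all tested genes were lower and 16.0% higher. *Por*, the reductase that all microsomal P450 enzymes depend on, had 252.7, 380.6, 439.9, 175.1 and 265.1 CPM in WT and 107.4, 145.1, 122.5, 89.5 and 74.4 CPM in KO mice. The groups did not overlap, and the log2 fold change was -1.49 ± 0.26 (SE; adjusted p = 0.00242). Cytochrome b5 reductase (*Cyb5r3*, -2.16), both cytochromes b5 (*Cyb5a*, -1.18, and *Cyb5b*, -1.07) and *Pgrmc1* (-0.51) were lower as well, and *Cyb5r1* was at -0.05 on the log2 fold scale (adjusted p = 0.827). Of 8 genes of heme synthesis, which supplies the cofactor, 3 were lower and none higher, against the same 13.9% and 16.0%. They were *Cpox* (-1.38), *Ppox* (-0.54) and *Alas1* (-0.52), the rate-limiting enzyme, whose adjusted p of 0.0463 (edgeR) rose to between 0.0699 and 0.106 without any 1 of WT replicates 1, 2, 3 and 5 and KO replicates 2, 3 and 4. *Alad* was at 0.10 on the log2 fold scale (adjusted p = 0.745).

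Genes before and after the epoxygenase step differed among themselves. *Ephx2*, the soluble epoxide hydrolase, had 446.7, 692.6, 724.5, 259.6 and 336.3 CPM in WT and 91.9, 53.4, 30.1, 50.7 and 26.6 CPM in KO mice, with no overlap (log2 fold change -3.28 ± 0.40, SE; adjusted p = 4.59e-04). Among 7 tested genes of arachidonic acid release and epoxide hydrolysis, *Ephx2* and the phospholipase *Pla2g6* (-0.95) were lower, and the phospholipases *Pla2g10* (1.22) and *Pla2g5* (1.55) higher, where 13.9% and 16.0% of all tested genes were. The call of *Pla2g5* was lost (adjusted p by edgeR between 0.0585 and 0.0969) without any 1 WT library or without KO replicate 3 or 5, and its log2 fold change was 0.73 without KO replicate 5, which had 21.04 CPM where the other KO libraries had at most 5.83. *Ephx1*, the microsomal hydrolase, and *Pla2g2a* had log2 fold changes of -0.91 (adjusted p = 0.126; -0.34 without WT replicate 3) and 0.48 (adjusted p = 0.243).

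Other P450 enzymes of arachidonic acid moved in both directions, with 3 of 9 tested genes lower and 1 higher (13.9% and 16.0% of all tested genes) and a median log2 fold change of -0.53. The number higher is near that background. *Cyp2j6*, an epoxygenase of the gut, went from 310.8 ± 93.6 to 84.4 ± 33.7 CPM (SD, n = 5 each; log2 fold change -1.88 ± 0.28, SE; adjusted p = 0.00124), *Cyp2j9* was lower (-1.40), and so was *Cyp4f13* (-0.39), while *Cyp4f40* was higher (0.59). *Cyp4f13* lost its call without any 1 of WT replicates 1, 2 and 3 and KO replicate 2 (adjusted p by edgeR between 0.0532 and 0.0620). *Cyp4f14*, the most abundant of the list, was at -0.53 on the log2 fold scale (adjusted p = 0.0594) and *Cyp4f16* at -0.64 (adjusted p = 0.191). *Cyp4a10*, a fatty acid hydroxylase under the control of PPARA, had 315 counts over WT and 0 over KO mice (exact permutation test, p = 0.00794, 0.0873 adjusted over 22 genes). For the list the number of calls was 7 without KO replicate 1. Of the cyclooxygenases and lipoxygenases, which use the same substrate, 1 of 6 tested genes was lower (13.9% of all tested genes), *Alox12* (-0.98), and that call was lost without any 1 of WT replicates 3, 4 and 5 or KO replicates 3 and 4, while 2 genes were called without KO replicate 1. *Alox15*, a lipoxygenase named after its values were seen, had between 5.66 and 8.87 CPM in WT and between 0.191 and 4.196 CPM in KO mice, with no overlap. Its log2 fold change of -1.52 ± 0.59 (SE) had an adjusted p of 0.0721 by edgeR and 0.0255 by DESeq2. *Ptgs1* was at -0.06 on the log2 fold scale (adjusted p = 0.806), *Alox5* at 0.40 (adjusted p = 0.584) and *Alox5ap* at 0.95 (adjusted p = 0.137). Without KO replicate 3 the values of *Alox5* and *Alox5ap* were -0.11 and 0.40.

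Among 19 regulators known to act on Cyp2c or intestinal genes, 9 were lower and 4 higher in KO mice (13.9% and 16.0% of all tested genes), with a median log2 fold change of -0.27. The number higher is near that background. *Nr1i3*, the receptor CAR, had 44.0, 58.4, 76.3, 48.4 and 50.1 CPM in WT and 8.22, 4.41, 1.67, 1.62 and 1.31 CPM in KO mice. Its groups did not overlap, with a log2 fold change of -4.01 ± 0.48 (SE; adjusted p = 4.19e-04). *Gata4*, a factor of the upper small intestine that is also in the list of regional markers, had between 160.3 and 216.7 CPM in WT and 59.4, 13.9, 5.24, 0.572 and 1.47 CPM in KO replicates 1 to 5 (log2 fold change -3.56 ± 0.95, SE; adjusted p = 0.0177). Lower too were *Gata6* (-1.27), *Hnf4g* (-1.25), *Ppara* (-1.12), *Ahr* (-0.85), *Cebpb* (-0.69), *Vdr* (-0.46) and PXR (*Nr1i2*, -0.43). With scaling by library size only, *Ahr* and *Nr1i2* were not called (adjusted p = 0.0516 for *Ahr* and 0.0513 for *Nr1i2*, edgeR), and *Ahr* was not called without any 1 of WT replicates 1, 2 and 3 and KO replicate 5 (adjusted p between 0.0602 and 0.0804). *Hnf4a*, the factor most often tied to liver Cyp2c genes, was at 0.27 on the log2 fold scale (adjusted p = 0.234). Higher were the bile acid receptor *Nr1h4* (2.02), the caudal factors *Cdx1* (0.92) and *Cdx2* (0.78), and *Cebpa* (0.64).

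**Figure D5:**
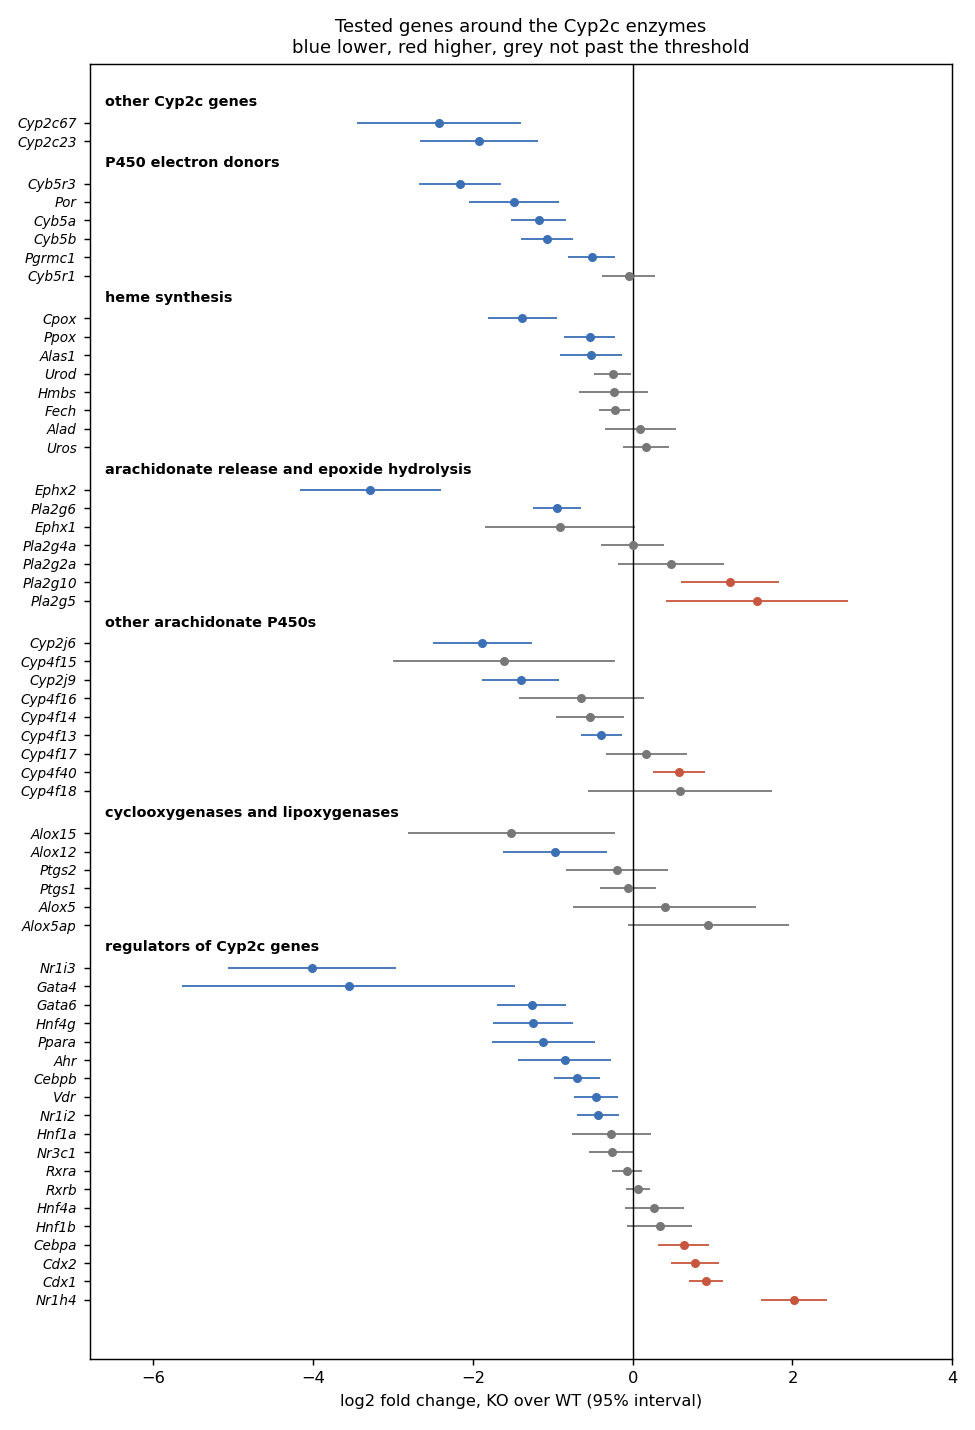
Points are log2 fold changes of KO over WT (x axis) with 95% intervals for the tested genes of 7 lists, blue where lower, red where higher and grey where edgeR's adjusted p is not under 0.05. Of the electron donors or partners of P450 enzymes 5 of 6 are blue, and the regulators run from -4.01 in Nr1i3 to 2.02 in Nr1h4.

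The genes whose profile over the 10 libraries was most like the mean of the 5 tested members were found by the root mean square difference of centred log2 CPM. They were *Prodh2* (0.53), *Slc4a5* (0.55), *Nr1i3* (0.55), *Slc46a1* (0.56) and *Efr3b* (0.57), where the mean profile itself had an SD of 2.28. *Slc46a1*, the folate carrier of the upper small intestine, had between 100.5 and 388 CPM in WT and between 6.40 and 16.7 CPM in KO mice. For single genes the nearest were *Ugt1a9* for *Cyp2c29* (0.91), *Aqp3* for *Cyp2c65* (0.33), *Cyp2b10* for *Cyp2c66* (0.60), *Mttp* for *Cyp2c68* (0.38) and *Car2* for *Cyp2c55* (0.68). *Cyp2b10*, a P450 gene known as a target of CAR, had 223.5, 489.3, 431.7, 183.3 and 164.9 CPM in WT and 11.4, 5.19, 0.324, 0.477 and 0 CPM in KO mice, with the KO libraries in the same order as in *Cyp2c66*. *Car2*, a carbonic anhydrase, had 64.3 CPM in KO replicate 2 and at most 9.34 CPM in the other KO libraries. KO replicate 2 also stood out in *Cyp2c55*. These genes were picked for likeness over the same 10 libraries, so that a shared order or outlying library follows from the choice. The measure also takes in the difference between the groups. Among the 5 tested members, *Cyp2c65* and *Cyp2c68* had the most alike profiles (0.84), and *Cyp2c55* and *Cyp2c66* the least (3.17).

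Markers of other cells and regions moved with the groups, and their part in the Cyp2c values was not tested. The counts of these lists stand beside 16.0% of all tested genes that were higher and 13.9% that were lower. Of 7 ileal markers, 5 were higher and none lower in KO mice, and their summed level ranged from 669.3 to 1504 CPM in WT and from 4012 to 11270 CPM in KO mice. The 5 were *Fabp6*, *Slc10a2*, *Fgf15*, *Slc51a* and *Slc51b*, and *Cubn* had a log2 fold change of -0.07. Of 6 tested markers of the proximal small intestine, 3 (*Gata4*, *Onecut2* and *Fabp1*) were lower and none higher (*Lct* had an adjusted p of 0.0631 by edgeR's test). *Cybrd1* (log2 fold change -0.32, adjusted p = 0.401) and *Slc40a1* (0.66, adjusted p = 0.236) were not called by that test either. The summed level of the list was from 5036 to 6758 CPM in WT and from 69.6 to 848.1 CPM in KO mice. Most of it in WT mice came from *Lct* and *Fabp1* (3537 and 2199 CPM on average). All 8 smooth muscle markers were higher, with a summed level from 1064 to 1888 CPM in WT and from 2829 to 8458 CPM in KO mice. Of 10 epithelial markers 5 were higher (*Epcam*, *Krt8*, *Krt18*, *Krt19* and *Cldn7*) and none lower by the test, and of 8 immune markers none was called, with summed levels from 978.3 to 1568 and from 644.8 to 1589 CPM. Markers of liver, the main organ of several Cyp2c genes, were low, with summed levels of 7 hepatocyte genes from 1.01 to 2.45 CPM in WT and from 1.58 to 22.8 CPM in KO mice. Of 2 tested, 1 was higher (*Apoh*), and *Cyp7a1* was at 0 throughout. *Tat*, which did not pass the filter, had at most 0.255 CPM in WT and between 0.338 and 18.5 CPM in KO mice. Stomach markers summed to at most 3.47 CPM and pancreatic markers to at most 14.6 CPM in any library, and of both lists only *Ctrb1* was tested and not called.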

How the data were processed

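RNA-seq libraries of single mice were analysed from the raw counts per Ensembl gene ID that the authors deposited. The submitters' processing notes name FastQC 0.11.9, Trimmomatic, HISAT2 2.0.4, SAMtools 1.3.1, DESeq2 1.14.1 and GRCm38. Which program counted the reads, with which annotation, and whether strand was used is not given in the sources used here. GENCODE M21 gave a symbol for 34490 of 35275 IDs.

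R 4.3.3 was used with edgeR 4.0.16 and DESeq2 1.42.0. Counts were scaled by TMM, filtered with filterByExpr (minimum count 10, minimum total 15) and fitted for 15610 genes with edgeR's quasi-likelihood model. Adjusted p-values (Benjamini-Hochberg) under 0.05 were called. Genes below the filter were compared by an exact 2-sided permutation test of the mean log2 CPM (prior count 2). On simulated counts for 15462 genes the test recovered 185 of 191 tested changed genes, with 4 false calls among 189. In that simulation 200 genes were changed, each by 2 or 3 on the log2 scale, up or down. Smaller fold changes, which many genes named here had, were not simulated. Counting intervals and floors cover counting error only, and a group at 0 was set to a floor of 3 counts over the group.

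The members and all lists were chosen with earlier results of these data known. Named were all Cyp2c genes with counts, the 3 most abundant genes of a list, called genes with an absolute log2 fold change over 1, called or nearest flanking genes, and the genes most alike in profile. Other genes were named after their values were seen, where a count of 5 or fewer needed them. Alternatives were RLE or library size scaling, DESeq2, other filters, another prior count, a replicate block, scaling to epithelial markers and leaving out each library. No protein sequences were used here. The summed level of the colon markers is not reported here.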

Additional observations from a re-analysis of the deposited data

Results flagged for a closer look

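In 21 groups of 5 values examined for single libraries far from the rest, 3 stood apart, all of them KO libraries. Chance flags about 1 in 20 groups of normally distributed values. The flagged values were CPM, for which that rate need not hold. *Cyp2c55* had 270.2 CPM in KO replicate 2, and the gap to the next KO library was 0.89 of the range of the group. *Cyp2c68* had 52.3 CPM in KO replicate 1, with a gap of 0.773 of the range. *Slc39a14*, the deleted gene, had 160.1 CPM in the same KO replicate 1, with a gap of 0.813 of the range. On the log2 scale the gaps were smaller parts of the range. The highest, next and lowest KO libraries had log2 CPM of 8.08, 5.11 and 2.42 in *Cyp2c55* and 5.71, 3.96 and 2.25 in *Cyp2c68*. What sets the flagged libraries apart was not tested.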

How the results depend on the processing

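Every Cyp2c member kept a negative fold change under each alternative that was run, and the median over the 7 lay between -3.59 and -2.80 with 1 library left out (the lowest without KO replicate 1). Without 1 library, *Cyp2c29* lay between -9.76 and -7.48, *Cyp2c66* between -7.56 and -6.52, *Cyp2c65* between -3.59 and -2.80, *Cyp2c68* between -2.77 and -1.61, and *Cyp2c55* between -2.60 and -0.11. For *Cyp2c38*, with 0 counts in KO mice, the fitted value depends on the prior count: the difference of mean log2 CPM was -3.79 with a prior count of 2 and -5.69 with 0.5, and DESeq2 gave -7.53. *Cyp2c29*, with 4 counts in KO mice, depends on it too, at -5.74 and -7.21 on the same measure, against -7.63 and -8.30 for *Cyp2c66*. Calls over all genes were 4660, and between 3207 and 5507 without 1 library. Scaling by library size only raised the median log2 fold change of all tested genes from 0.03 to 0.15 and the share of higher calls from 53.5% to 69.4%, and with it *Alas1*, *Cyp4f13*, *Nr1i2*, *Ahr* and *Hells* were no longer called; with no filter *Alas1* and *Pla2g5* were not. Calls among other arachidonate P450s numbered 4, but 7 with no filter and 9 with DESeq2, and between 3 and 7 without 1 library (7 without KO replicate 1). For cyclooxygenases and lipoxygenases there was 1 call, 2 with DESeq2, and between 0 and 2 without 1 library (0 without any 1 of WT replicates 3, 4 and 5 and KO replicates 3 and 4, 2 without KO replicate 1). The genes flanking the contiguous cluster, a span chosen after the annotation was read, had 5 calls, and between 3 and 7 without 1 library (3 without any 1 of WT replicates 1, 2 and 5, 7 without KO replicate 1). The causes were not tested. Replicate numbers do not pair the mice: same-numbered libraries had correlations of deviations from -0.17 to 0.18, 1 of 5 over 0.1, and 1 of 5 WT libraries was closest to its own number. With the replicate block the median over the members was -3.31, *Cyp2c55* was at -1.53, and calls numbered 3848. *Pgrmc1*, *Pla2g5*, *Alox12*, *Nr1i2* and *Scd1* were not called with it (adjusted p by edgeR between 0.0514 and 0.121), while *Cyp4f14* and *Alox15* were. That leaves 4 calls among the electron donors or partners of P450 enzymes. Depth limits what can be said of *Cyp2c38*, *Cyp2c29*, *Cyp2c40* and *Cyp2c66* in KO mice, where some libraries had 0 or few counts.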
